A study of Mus musculus with 15 samples.

Results

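The complement system was followed in mouse heart RNA through 9 genes, C3, C4b, Cfb, Cfd, Cfp, Serping1, C1ra, Cd55 and C3ar1. They were taken by symbol from a table of 17447 genes, and all 9 were among the 13021 genes with enough reads to test. The 15 hearts came from male mice, 3 to each of 5 groups, and were taken 18 weeks after surgery. WTSHAM mice were wild type (C57BL/6J) and had a sham operation, for which the labels record no injection. WTCKD mice were wild type with chronic kidney disease (CKD) from subtotal nephrectomy and received the empty vector, and WTCKD + RNLS mice received AAV9-cTnT-Rnls instead, a virus that expresses renalase (RNLS) from the cardiac troponin T promoter in cardiomyocytes. KOCKD and KOCKD + RNLS mice had the same surgery and the same vector or virus on an RNLS knockout background made with TALEN in C57BL/6J mice. All mice were young adults at the start. Every knockout library came from a CKD heart, so the effect of the knockout without CKD was not analysed here, and Rnls itself was not analysed here, so the genotype labels were not checked against it.

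Complement is a cascade of plasma and tissue proteins that marks surfaces for removal and recruits leukocytes. The classical, lectin and alternative pathways converge on cleavage of C3, whose fragment C3a signals through the receptor C3ar1 and whose fragment C3b binds covalently to nearby surfaces. The liver supplies most of the circulating protein, while fibroblasts, macrophages, endothelial cells and adipocytes also transcribe parts of the cascade within tissues such as the heart. Members of the group act at different steps. C1ra encodes a protease of the C1 complex and C4b the C4 protein that this complex cleaves. Cfb, Cfd and Cfp encode factor B, factor D and properdin of the alternative pathway. Serping1 encodes the C1 inhibitor, and Cd55 encodes decay-accelerating factor, which dissolves C3 convertases on host cells.

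RefSeq promoter windows (GRCm38.p6) were on hand for 6 of the 9 genes, C3, Cfd, Cfp, C1ra, Cd55 and C3ar1. The 250 bases before the start site were searched on both strands for GAAANNGAA (the core of the interferon-stimulated element), TTCNNNGAA (a STAT motif), TTGCNNAA (a C/EBP motif) and CACGTG (an E-box), which occurred in 7.13%, 7.02%, 9.56% and 6.02% of 32851 windows of this length. C3 held the C/EBP letters between positions -45 and -38 from the start site, and the other 5 windows held none of the 4 motifs. The windows of C3, which had the only match, and of Cfp, which was lower in 3 comparisons described here, are printed 5′ to 3′ in the direction of transcription, with the match in capitals. That of C3 is chr17:57228137-57228386 on the minus strand and that of Cfp is chrX:20931556-20931805 on the minus strand.
C3: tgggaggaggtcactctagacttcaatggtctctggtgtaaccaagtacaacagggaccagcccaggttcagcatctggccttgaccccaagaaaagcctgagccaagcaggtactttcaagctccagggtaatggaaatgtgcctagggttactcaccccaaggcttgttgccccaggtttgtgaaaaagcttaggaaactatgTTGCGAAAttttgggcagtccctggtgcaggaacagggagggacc
Cfp: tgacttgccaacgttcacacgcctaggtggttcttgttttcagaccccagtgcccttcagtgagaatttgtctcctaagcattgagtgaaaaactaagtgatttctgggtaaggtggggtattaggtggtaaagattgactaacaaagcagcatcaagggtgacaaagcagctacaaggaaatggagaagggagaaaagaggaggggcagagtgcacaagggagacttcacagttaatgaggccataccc
A match of these letters is a description of the sequence, and factor binding was not measured in these hearts.

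In the mm9 build the genes lie on 6 chromosomes, and all are protein coding. On chromosome 17, C3 spans chr17:57343397-57367559, C4b chr17:34865325-34880827 and Cfb chr17:34993319-34999463, all on the minus strand, with C4b and Cfb in the class III region of the major histocompatibility complex. C1ra spans chr6:124462423-124473458 on the plus strand and C3ar1 chr6:122797156-122806179 on the minus strand. The other genes are Cfd at chr10:79353598-79355401 on the plus strand, and on the minus strand Cfp at chrX:20502580-20508681, Serping1 at chr2:84605544-84615601 and Cd55 at chr1:132335604-132359321. Counts of 4 members carry uncertainty from their neighbours or copies. C4b has a near-identical copy, C4a, which was not analysed here. Cfb shares 2246 of its 2825 exonic bases with the model Gm20547 on the same strand. C1ra shares 29 of 3001 exonic bases with C1rb on the same strand, and Cd55 shares 102 of 4853 with the antisense Gm16083.

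Libraries held 10480788 to 13424078 reads counted on genes (median 12011453). Cardiomyocyte markers were high in every library, with a summed level of 81600 to 111000 CPM (a read count divided by the TMM-scaled depth of its library) over 7 genes, while 4 liver genes together reached 1.19 to 14.3 CPM. Libraries differed in their atrial content. Myl7, an atrial myosin light chain, ran from 0.325 to 805 CPM, and its part in the results was not tested. Because the samples are bulk heart tissue, a lower level may come from fewer cells of a type or from less RNA per cell, and these cannot be told apart.

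Per length, Serping1 and C3 were the most abundant of the 9 transcripts. Their mean FPKM (counts scaled to gene length and library total) over 15 libraries was 85.3 for Serping1 and 64.7 for C3. C4b (9.91 FPKM) and C1ra (9.44 FPKM) followed, then Cfp (5.71 FPKM) and Cfd (5.61 FPKM). Cfb (2.08 FPKM), C3ar1 (1.85 FPKM) and Cd55 (1.13 FPKM) were the lowest. The inhibitor of the C1 complex was thus measured at a higher level per length than C1ra in each of the 5 groups, with group means of 65.0 to 111 FPKM for Serping1 and 7.70 to 12.5 FPKM for C1ra.

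The highest group mean was that of WTSHAM for 8 of the 9 genes, and that of WTCKD for C3. KOCKD + RNLS had the lowest mean for C4b, Cfp, Serping1, C1ra and C3ar1, WTCKD + RNLS for Cfb, Cfd and Cd55, and KOCKD for C3. In the lowest group, C4b stood at 20.0% of its WTSHAM mean, Cfb at 30.3%, Cfp at 39.9% and C3ar1 at 41.1%, whereas Serping1, C1ra, Cd55 and C3 stood at 59.3% to 63.5%. Levels differed among the 5 groups for 8 of the 9 genes (edgeR quasi-likelihood F test, adjusted p = 0.000123 for Cfp to 0.0421 for Cd55), beside 22.2% of all genes tested. Cfd did not pass (adjusted p = 0.173). Without KOCKD + RNLS replicate 2, or without replicate 3 of that group, 5 of the 9 passed. Over all genes the calls also fell without replicate 2 of that group, from 2887 to 1740.

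**Figure D1:**
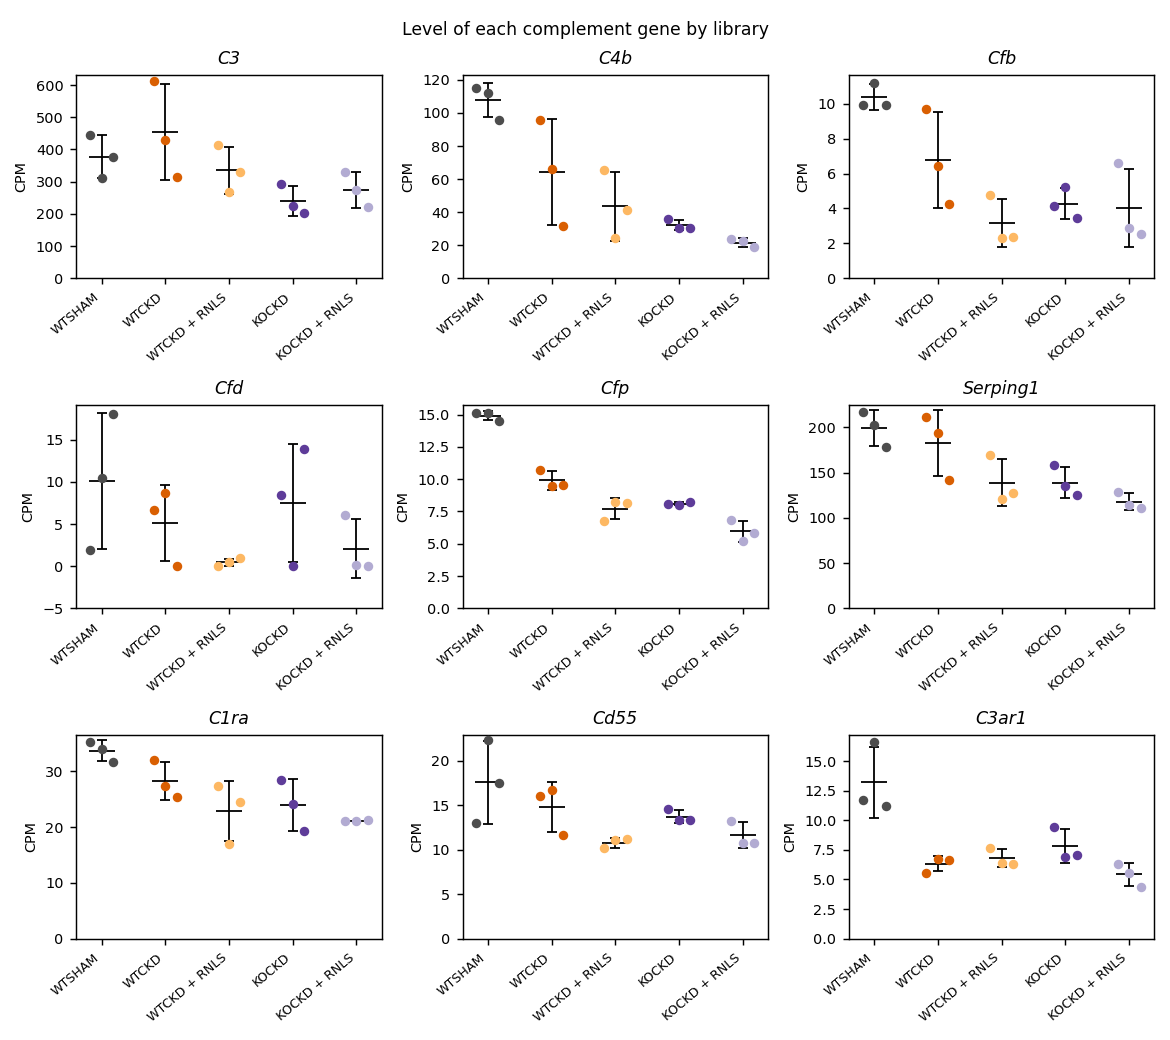
Level of each complement gene in CPM (vertical axis, linear, its own scale in each panel) in the 15 libraries by group. Points are libraries, horizontal bars group means and whiskers the SD over 3 mice. WTSHAM libraries sit highest for Cfp (14.5 to 15.1 CPM) and C3ar1 (11.2 to 16.6 CPM), WTCKD libraries spread widely for C3 (316 to 612 CPM), and Cfd ranges from 0.0 to 18.0 CPM within and across groups.

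C3 is the protein on which all routes converge. Its level was 444, 311 and 378 CPM in WTSHAM, 612, 431 and 316 CPM in WTCKD and 413, 267 and 329 CPM in WTCKD + RNLS. KOCKD hearts held 292, 225 and 204 CPM and KOCKD + RNLS hearts 331, 274 and 220 CPM. The 3 KOCKD values lay below all WTCKD values, while neighbouring groups in the order of means overlapped and differed by less than the larger SD.

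C4b, which forms part of the classical and lectin C3 convertase, had group means that descended from WTSHAM to KOCKD + RNLS. WTSHAM hearts held 115, 112 and 95.7 CPM and WTCKD hearts 95.6, 65.9 and 31.7 CPM. WTCKD + RNLS hearts held 65.6, 24.1 and 41.2 CPM, KOCKD hearts 35.6, 30.3 and 30.4 CPM and KOCKD + RNLS hearts 23.6, 22.4 and 18.8 CPM. The lowest WTSHAM value and the highest WTCKD value of C4b nearly met, and the WTCKD range spanned 3.01-fold, against 1.18-fold in KOCKD. C1ra, upstream of C4b, was 35.3, 34.1 and 31.6 CPM in WTSHAM, 32.0, 27.4 and 25.4 CPM in WTCKD and 27.3, 16.9 and 24.5 CPM in WTCKD + RNLS. It was 28.5, 24.1 and 19.3 CPM in KOCKD and 21.1, 21.1 and 21.2 CPM in KOCKD + RNLS. The ranges of C1ra overlapped between all neighbours in the order of group means.

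Cfb supplies the catalytic part of the alternative C3 convertase. It was 9.92, 11.2 and 9.93 CPM in WTSHAM, 9.72, 6.43 and 4.25 CPM in WTCKD and 4.76, 2.32 and 2.37 CPM in WTCKD + RNLS. In KOCKD it was 4.11, 5.22 and 3.46 CPM, and in KOCKD + RNLS 6.58, 2.89 and 2.53 CPM. These values rest on 25 to 149 reads per library. The 3 groups below WTCKD overlapped, and neighbours among them in the order of means differed by less than the larger SD.

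Cfp encodes properdin, which stabilises the alternative convertase and is made by myeloid cells, and its libraries differed by 1.03- to 1.31-fold within groups at a depth of 62 to 201 reads. It was 15.1, 15.1 and 14.5 CPM in WTSHAM, 10.7, 9.46 and 9.53 CPM in WTCKD and 6.76, 8.26 and 8.12 CPM in WTCKD + RNLS. KOCKD hearts held 8.05, 8.01 and 8.22 CPM and KOCKD + RNLS hearts 6.83, 5.21 and 5.81 CPM. WTSHAM lay apart from WTCKD, and WTCKD lay apart from KOCKD. KOCKD and WTCKD + RNLS overlapped, their means being 8.09 ± 0.109 and 7.71 ± 0.829 CPM (SD, n = 3).

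Serping1, the regulator that blocks C1r and C1s, was 217, 203 and 178 CPM in WTSHAM, 212, 194 and 142 CPM in WTCKD and 169, 121 and 127 CPM in WTCKD + RNLS. It was 158, 135 and 125 CPM in KOCKD and 129, 114 and 111 CPM in KOCKD + RNLS. Every pair of neighbouring groups overlapped. Cd55, the membrane-bound regulator, was 13.0, 22.3 and 17.5 CPM in WTSHAM, 16.0, 16.7 and 11.6 CPM in WTCKD and 10.2, 11.1 and 11.2 CPM in WTCKD + RNLS. It was 14.6, 13.3 and 13.3 CPM in KOCKD and 13.2, 10.7 and 10.8 CPM in KOCKD + RNLS. Both virus-treated groups lay below their vector-treated groups without overlap for Cd55, with a small gap in each case.

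C3ar1, the receptor for C3a on myeloid cells, had a pattern of its own. It was 11.7, 16.6 and 11.2 CPM in WTSHAM, 5.58, 6.70 and 6.64 CPM in WTCKD and 7.68, 6.41 and 6.28 CPM in WTCKD + RNLS. KOCKD hearts held 9.45, 6.90 and 7.09 CPM and KOCKD + RNLS hearts 6.34, 5.54 and 4.40 CPM. WTSHAM stood above all other libraries, and among the 4 CKD groups only KOCKD lay apart, above WTCKD and above KOCKD + RNLS.

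Comparisons between groups were contrasts in a model of all 15 libraries, and a change was called at a Benjamini-Hochberg adjusted p under 0.05 over the 13021 genes. They share libraries (WTCKD enters 3 of the 5 pairwise comparisons and WTSHAM 2), so they are not independent. An exact permutation test of 3 mice against 3 cannot give p below 0.1, so the model alone was used for single genes. The members and lists were chosen with earlier results of these data known. Their shares beside those of all genes are therefore a description and not a test. At the study's own threshold on the fold change and the unadjusted p, 3 of the 9 genes were lower in WTCKD against WTSHAM (7.63% of all genes), 4 in WTCKD + RNLS against WTCKD (8.09%), 2 in KOCKD + RNLS against KOCKD (10.1%), 3 in KOCKD against WTCKD (3.68%), 8 in WTCKD + RNLS against WTSHAM (10.7%) and 1 in the difference of the RNLS effect between genotypes (8.43%), and none was higher.

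**Figure D2:**
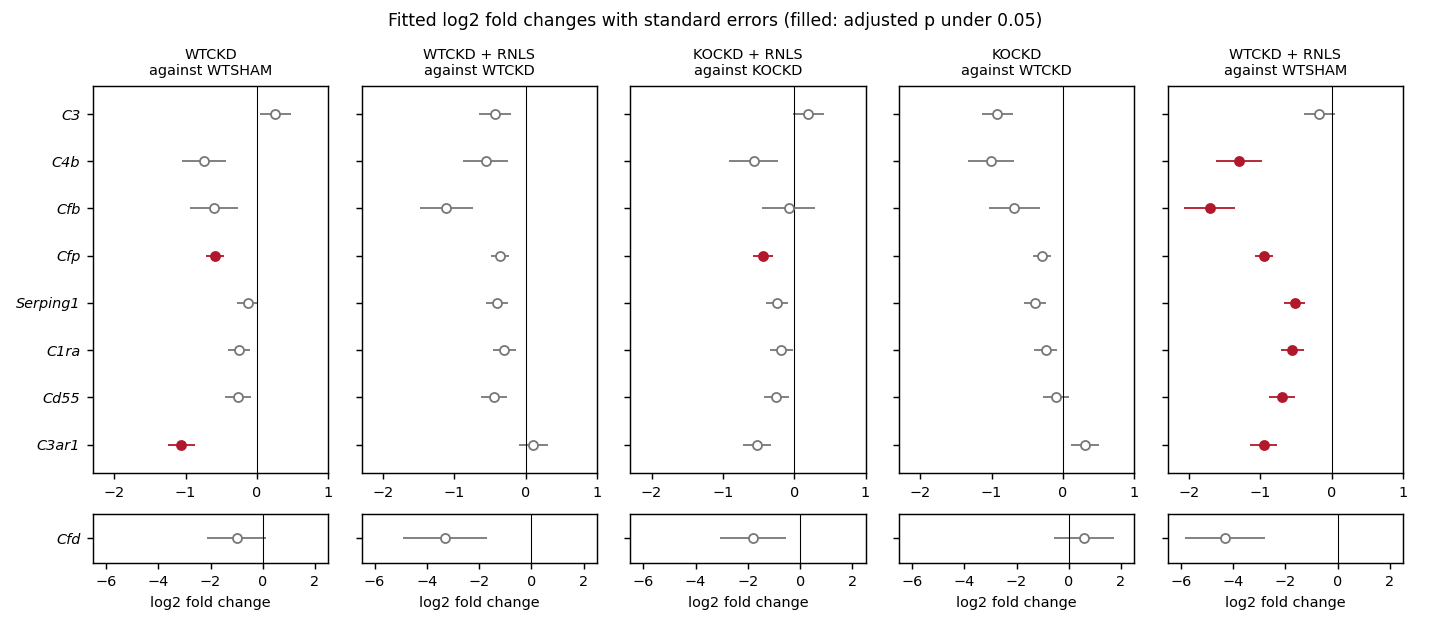
Fitted log2 fold changes of the 9 genes (horizontal axis) in 5 comparisons, with whiskers of 1 standard error from edgeR. Cfd has its own, wider axis below the others. Filled red points have an adjusted p under 0.05, which 2 genes reach in WTCKD against WTSHAM, 1 in KOCKD + RNLS against KOCKD and 7 in WTCKD + RNLS against WTSHAM.

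The effect of CKD with vector was read from WTCKD against WTSHAM. C3ar1 and Cfp fell. C3ar1 went from 13.2 ± 3.01 to 6.31 ± 0.630 CPM (SD, n = 3), a log2 change of -1.06 ± 0.19 (SE; edgeR adjusted p = 0.0062). Cfp went from 14.9 ± 0.350 to 9.91 ± 0.718 CPM, a log2 change of -0.59 ± 0.13 (edgeR adjusted p = 0.0223). These were 2 of 9 genes, where 1.7% of all genes were called lower. C4b (-0.74 ± 0.31, edgeR adjusted p = 0.225) and Cfb (-0.60 ± 0.34, edgeR adjusted p = 0.378) also lay below WTSHAM in every library without passing. C3 had a fitted value above 0, at 0.26 ± 0.22 (edgeR adjusted p = 0.59). In all, 4 of 9 genes did not overlap and were lower, against 12.2% of all genes, and the median log2 fold change of the 9 was -0.59, against -0.01. The call of Cfp was lost without WTSHAM replicate 2 or any WTCKD replicate (adjusted p up to 0.0975), while C3ar1 was called without each library in turn. Both calls were lost when only the 6 libraries compared were fitted. Surgery and vector differ together between these groups and cannot be told apart.

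Interferon response genes moved with this comparison. Of 19 such genes 18 fell, with a median log2 fold change of -1.79, and their summed level was 1520 to 3490 CPM in WTSHAM and 642 to 923 CPM in WTCKD. Macrophage markers did not pass in edgeR for any of 10 genes (4 had an unadjusted p under 0.05), with sums of 563 to 751 CPM in WTSHAM and 441 to 595 CPM in WTCKD. This list includes the complement genes C1qa, C1qb and C1qc. Of 10 acute phase and NF-kB genes, Nfkbia, an inhibitor of NF-kB, alone passed and rose, at 33.5 ± 3.11 CPM in WTSHAM and 69.8 ± 13.8 CPM in WTCKD. The part of these genes in the levels of C3ar1 and Cfp was not tested.

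Cardiac RNLS in wild-type CKD hearts was read from WTCKD + RNLS against WTCKD. None of the 9 genes was called by edgeR, where 4.47% of all genes were called. Fitted values were below 0 for 8 of them, against 47.8% of all genes, with a median log2 fold change of -0.43 against 0.01. At an unadjusted p under 0.05 there were 4 genes, against 20.2% of all genes. Cfb was at 0.464 times the WTCKD level (-1.11 ± 0.37, edgeR adjusted p = 0.104), Cd55 at 0.735 times (-0.44 ± 0.18, adjusted p = 0.179), Serping1 at 0.759 times (-0.40 ± 0.15, adjusted p = 0.144) and Cfp at 0.778 times (-0.36 ± 0.13, adjusted p = 0.137). Only Cfp and Cd55 did not overlap between the groups, 2 of 9 where 10.8% of all genes were lower without overlap. C3 was at -0.43 ± 0.22 (edgeR adjusted p = 0.295), and C3ar1 at 0.11 ± 0.20 (edgeR adjusted p = 0.822). DESeq2 called 1 gene, Cfb (adjusted p = 0.0488), and edgeR called Serping1 without WTCKD replicate 3 (adjusted p = 0.0399). Endothelial markers fell for 4 of 6 genes and fibroblast markers for 2 of 8 in the same comparison, with endothelial sums of 1230 to 1390 CPM in WTCKD and 900 to 958 CPM in WTCKD + RNLS, and fibroblast sums of 2210 to 3630 and 1800 to 2580 CPM. Their part in the complement levels was not tested.

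Cardiac RNLS in knockout CKD hearts was read from KOCKD + RNLS against KOCKD. Cfp fell, from 8.09 ± 0.109 to 5.95 ± 0.817 CPM, a log2 change of -0.44 ± 0.14 (edgeR adjusted p = 0.039). It was the only call among the 9 genes, where 7.04% of all genes were called lower. C3ar1, at -0.52 ± 0.20 (edgeR adjusted p = 0.0854), and C4b, at -0.57 ± 0.34 (edgeR adjusted p = 0.265), had larger fitted changes that did not pass. Cfp, C3ar1, C4b and Cd55 were lower without overlap, 4 of 9 where 20.0% of all genes were. C3 was at 0.20 ± 0.22 (edgeR adjusted p = 0.579). The call of Cfp remained past the threshold without KOCKD + RNLS replicate 1 but was lost without any of the other 5 libraries. It was also lost with DESeq2, with the replicate number as a block and without the filter on low counts. The same held with gene length offsets (-0.26) and with only the compared libraries. Macrophage markers fell for 2 of 10 genes, Lyz2 and the complement gene C1qa, with sums of 398 to 480 CPM in KOCKD and 296 to 388 CPM in KOCKD + RNLS. Atrial markers fell for 3 of 5 genes, among them Myl7 from 288 ± 449 to 0.579 ± 0.224 CPM, with sums of 119 to 2680 CPM in KOCKD and 133 to 290 CPM in KOCKD + RNLS. Col1a1 of 8 fibroblast genes, Pecam1 of 6 endothelial genes and Lipe of 7 adipocyte genes also fell, at 0.467, 0.816 and 0.64 times the KOCKD level. Of 7 cardiomyocyte genes Myh6 and Ryr2 rose, and cardiomyocyte sums were 84700 to 90900 CPM in KOCKD and 95800 to 98500 CPM in KOCKD + RNLS. The part of these lists in the level of Cfp was not tested.

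The responses to RNLS were compared between genotypes by an interaction term. None of the 9 genes passed in edgeR, where 0.0% of all genes were called, and at an unadjusted p under 0.05 there was 1, C3ar1, against 17.6% of all genes. C3ar1 responded lower in the knockout by -0.63 ± 0.28 on the log2 scale (edgeR adjusted p = 0.262). The differences for C3 (0.63 ± 0.31, edgeR adjusted p = 0.31) and Cfb (1.03 ± 0.53, edgeR adjusted p = 0.317) had the opposite sign. For Cfp the difference was -0.08 ± 0.19 (edgeR adjusted p = 0.87). DESeq2 called 374 genes in this comparison and none of the 9.

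The knockout in vector-treated CKD hearts was read from KOCKD against WTCKD. The study names different sources for its knockout and wild-type mice, so genotype and source cannot be told apart. No gene of the 9, and 0.0% of all genes, was called by edgeR, and DESeq2 called 10 genes over the whole table. At an unadjusted p under 0.05 there were 4 of the 9, against 10.1% of all genes. C3 was at 240 ± 45.8 CPM in KOCKD and 453 ± 149 CPM in WTCKD, a log2 difference of -0.92 ± 0.22 (unadjusted p = 0.000843, edgeR adjusted p = 0.441). C4b was at 32.1 ± 3.05 and 64.4 ± 32.0 CPM, a difference of -1.01 ± 0.32 (edgeR adjusted p = 0.444). Serping1 was at -0.39 ± 0.15 and Cfp at -0.29 ± 0.13 (edgeR adjusted p = 0.458 and 0.487). C3 and Cfp were lower without overlap and C3ar1 was higher without overlap, 3 of 9 where 19.3% of all genes did not overlap. Without WTCKD replicate 1, the library with the most C3, the difference of C3 was -0.64 and that of C4b -0.61.

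The virus-treated wild-type CKD hearts were also set against the sham hearts. Surgery, virus and renalase differ together between these groups and cannot be told apart. From WTSHAM to WTCKD + RNLS 7 of the 9 genes fell, where 4.81% of all genes were called lower. The median log2 fold change of the 9 was -0.95, against 0.0 over all genes. These shares describe genes chosen with earlier results known. Of the alternative pathway, Cfb fell to 0.305 times (-1.71 ± 0.36, edgeR adjusted p = 0.0092) and Cfp to 0.518 times its WTSHAM level (-0.95 ± 0.13, edgeR adjusted p = 0.00052). Of the classical pathway, C4b fell to 0.407 times (-1.30 ± 0.32, edgeR adjusted p = 0.021) and C1ra to 0.682 times (-0.55 ± 0.16, edgeR adjusted p = 0.0427). The regulators Cd55 (-0.70 ± 0.18, edgeR adjusted p = 0.0252) and Serping1 (-0.52 ± 0.15, edgeR adjusted p = 0.042) fell as well, as did the receptor C3ar1 (-0.95 ± 0.19, edgeR adjusted p = 0.00625). C3, at 336 ± 73.2 against 378 ± 66.7 CPM, did not pass (-0.17 ± 0.22, edgeR adjusted p = 0.689), and nor did Cfd (-4.32 ± 1.53, edgeR adjusted p = 0.0961). Without overlap 8 of 9 were lower, all but C3, against 11.9% of all genes. Without WTSHAM replicate 2, WTCKD + RNLS replicate 2 or WTCKD + RNLS replicate 3 the count of calls was 3. Cfb, Cfp and C3ar1 kept their calls whichever of the 6 libraries was omitted, while the call of C4b was lost for 3 of these omissions, that of Serping1 for 4, and those of C1ra and Cd55 for 5 each.

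Of the marker lists, 19 of 19 interferon response genes (median log2 fold change -2.12), 6 of 10 macrophage genes (median -0.76), 4 of 6 endothelial genes and 3 of 8 fibroblast genes fell between these groups. The macrophage calls and sums include C1qa, C1qb and C1qc, which are complement genes themselves. Summed macrophage markers were 563 to 751 CPM in WTSHAM and 404 to 441 CPM in WTCKD + RNLS, and summed fibroblast markers 2750 to 3870 and 1800 to 2580 CPM. Of the macrophage genes, Adgre1 was at 18.6 ± 4.67 CPM in WTSHAM and 8.27 ± 0.332 CPM in WTCKD + RNLS. Cardiomyocyte sums were 81600 to 91800 and 102000 to 111000 CPM. The part of these lists in the complement levels was not tested.

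The rest of the cascade was described with 55 other complement genes, of which 42 were in the table and 28 were tested. None was called higher by edgeR in any of the 5 comparisons. At the study's threshold 1 was higher and 4 were lower in WTCKD + RNLS against WTCKD, against 821 and 1053 of all 13021 genes. WTCKD against WTSHAM and KOCKD against WTCKD called none of the 28 in edgeR, with 5 and 7 at an unadjusted p under 0.05, against 17.6% and 10.1% of all genes. In WTCKD + RNLS against WTCKD 2 of the 28 fell, where 2.28% of all genes were called lower. C7, a subunit of the membrane attack complex, fell from 34.3 ± 6.77 to 13.7 ± 3.39 CPM (-1.31 ± 0.23, edgeR adjusted p = 0.00544), and Cd93, an endothelial and myeloid surface protein once taken for a C1q receptor, fell from 161 ± 18.9 to 88.6 ± 9.54 CPM (-0.86 ± 0.14, edgeR adjusted p = 0.00406). In KOCKD + RNLS against KOCKD 2 of the 28 fell, a share close to the 7.04% of all genes called lower there. C1qa, a chain of C1q, fell from 58.6 ± 2.80 to 42.3 ± 8.28 CPM (-0.47 ± 0.14, edgeR adjusted p = 0.0289), and Cr1l, the membrane regulator Crry, fell from 63.5 ± 2.57 to 54.0 ± 2.45 CPM (-0.23 ± 0.07, edgeR adjusted p = 0.0432).

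Between WTCKD + RNLS and WTSHAM 8 of the 28 fell, where 4.81% of all genes were called lower. C1qa (-0.76 ± 0.13), C1qb (-0.82 ± 0.16) and C1qc (-0.73 ± 0.15) are the 3 chains of C1q and belong to the macrophage markers as well (edgeR adjusted p = 0.00269, 0.00543 and 0.00715). C7 was at -1.51 ± 0.23 (edgeR adjusted p = 0.000966) and Cd93 at -0.62 ± 0.14 (edgeR adjusted p = 0.016). Itgam (-0.90 ± 0.25) and Itgb2 (-0.71 ± 0.19), the chains of complement receptor CR3, were also lower (edgeR adjusted p = 0.0369 and 0.0328). Median log2 fold changes of the 28 were -0.13, -0.30, -0.29 and -0.24 in WTCKD against WTSHAM, both RNLS comparisons (wild type, then knockout) and KOCKD against WTCKD, and -0.40 here. For Cfi, the protease factor I, no library held more than 1 read, and for Hc, the gene of C5, none held more than 3. At this depth the heart libraries thus gave no usable value for either.

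**Figure D3:**
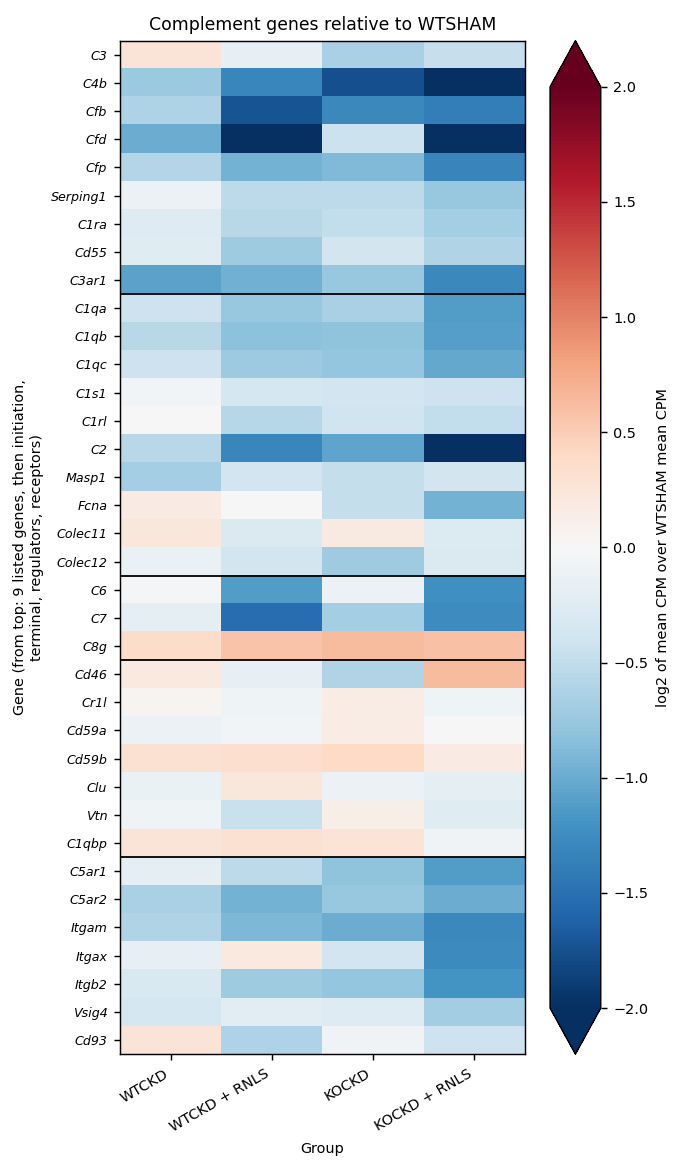
Group means of the 9 complement genes and of 27 others, as the log2 of the mean CPM over the WTSHAM mean CPM (colour, blue lower and red higher, limited to -2 and 2). Rows are genes, with lines between the 9 genes and the initiation, terminal, regulator and receptor lists, and columns are the 4 CKD groups. C4b, Cfb, Cfp and C1qa are blue in every column, at -1.12 for C1qa in KOCKD + RNLS. C7 is pale in WTCKD (-0.2) and blue in the other columns, at -1.52 in WTCKD + RNLS. Clu stays pale, between -0.18 and 0.23.

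Cfd, which encodes factor D and is also known as adipsin, an adipocyte product, varied more within groups than any other member. Its counts were 23, 138 and 245 reads in WTSHAM, 79, 94 and 0 reads in WTCKD and 1, 5 and 12 reads in WTCKD + RNLS. KOCKD libraries held 97, 0 and 173 reads and KOCKD + RNLS libraries 75, 2 and 0 reads. High and near-empty libraries thus occurred together in 3 of the 5 groups, and edgeR called Cfd in no comparison with all 15 libraries. In WTCKD + RNLS against WTSHAM (-4.32, edgeR adjusted p = 0.0961) it was called without WTSHAM replicate 1 (-4.80, adjusted p = 0.0452) and with only the libraries compared (-4.33, adjusted p = 0.0331). Counts of Adipoq, Plin1 and Cidec, 3 of the 8 listed adipocyte genes, moved with it. In the 6 libraries with at most 5 Cfd reads these 3 genes together had at most 3 reads, and in the 9 libraries with 12 or more Cfd reads they had 11 to 122. KOCKD replicate 2 and KOCKD + RNLS replicate 3 had 0 reads of all 4 genes. The cut between the libraries was set after their values were seen. Of the full adipocyte list of 8 genes, the summed level was 123 to 145 CPM in WTSHAM, 111 to 142 CPM in WTCKD, 89.5 to 116 CPM in WTCKD + RNLS, 133 to 148 CPM in KOCKD and 88.0 to 96.9 CPM in KOCKD + RNLS. The sum was thus at least 133 CPM in every KOCKD library, replicate 2 included. Lipe alone was at 82.5 ± 9.32 CPM in KOCKD, against means of 1.76, 1.07 and 1.24 CPM for Adipoq, Plin1 and Cidec. The sum rests mostly on genes other than these 3, so it cannot show whether they followed Cfd. The part of adipose tissue in the level of Cfd was not tested.

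**Figure D4:**
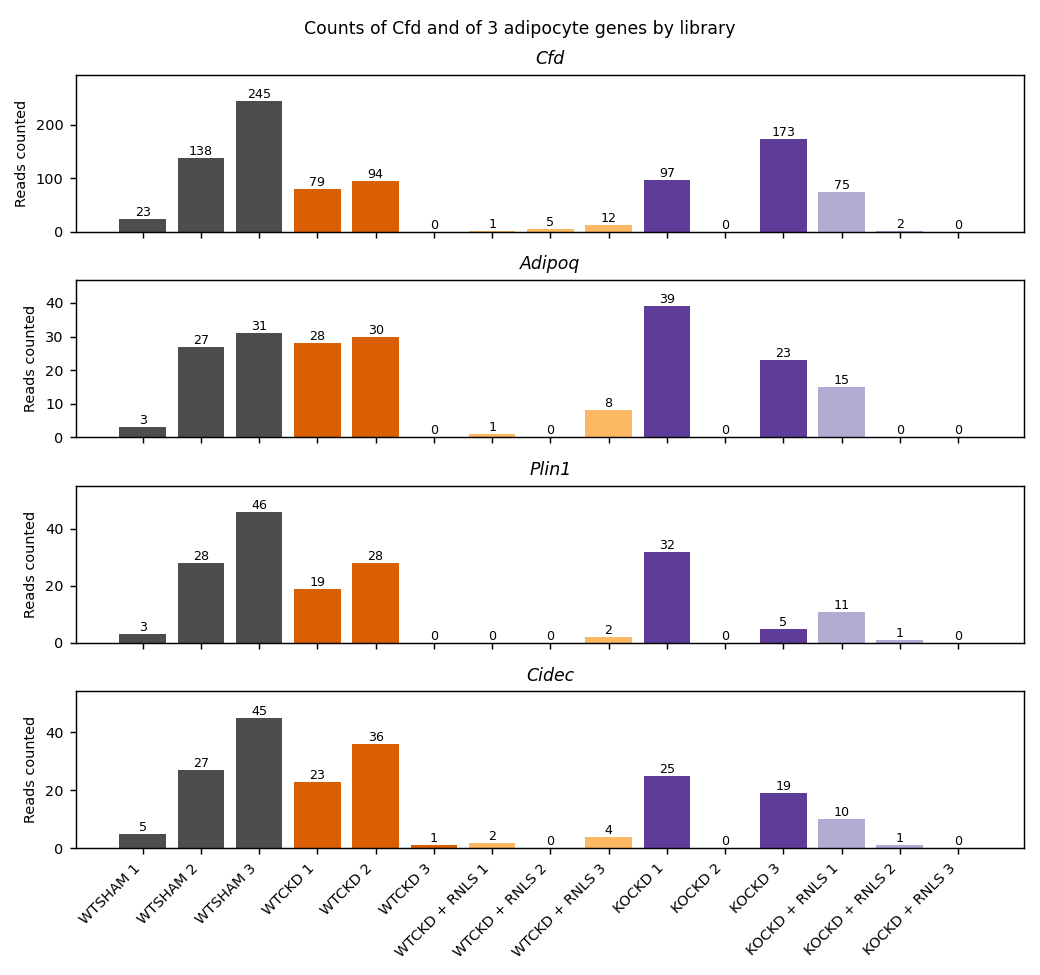
Reads counted for Cfd and for the adipocyte genes Adipoq, Plin1 and Cidec (vertical axes, linear from 0) in each of the 15 libraries, coloured by group, with the count above each bar. The 6 libraries with at most 5 Cfd reads have at most 3 reads of the other genes together.

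Levels of several members also moved together from heart to heart. Within WTCKD, replicate 1 was the highest library for 6 of the 9 genes and replicate 3 the lowest for 7. Replicate 1 was also the highest for 6 in WTCKD + RNLS, 6 in KOCKD and 8 in KOCKD + RNLS. In WTSHAM, replicates 1 and 2 were each the highest for 4. The same counts over all genes are not given here. Over 15 libraries the pairwise Pearson r of log2 CPM among C3, C4b, Cfb, Serping1 and C1ra was 0.63 to 0.95, and 0.5 to 0.89 after group means were removed, a set picked after the values were seen. Over all 36 pairs it was 0.19 to 0.95, and -0.2 to 0.89 within groups. C3ar1 with C3 gave 0.19 and, with Cfp, 0.79 over all libraries and -0.08 within groups. The libraries share the group differences and their depth in these values, which are given as a description.

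The transcripts closest in pattern to each member were sought among 11726 genes by Pearson r of log2 CPM over the 15 libraries. C4b was closest to Serping1 (r = 0.945), then Itgb2 (r = 0.939) and Fbln1 (r = 0.926). Serping1 was closest to C4b (r = 0.945), Dcn (r = 0.931) and Itgb2 (r = 0.929), and C1ra to Spon1 (r = 0.922), Itgb2 (r = 0.911) and Cyp1b1 (r = 0.91). C3 came closest to Gpnmb (r = 0.857) and was also close to Htra3 (r = 0.835). Cfp was closest to Tyrobp (r = 0.953), C1qa (r = 0.945) and Cotl1 (r = 0.931), and Cfb to Tnfrsf11a (r = 0.916), Vav1 (r = 0.905) and Lair1 (r = 0.902). C3ar1 was closest to the interferon-inducible genes Ifi35 (r = 0.914), Ifi209 (r = 0.908) and Rsad2 (r = 0.901). Cd55 was nearest to Clec12a (r = 0.922), Ltbp2 (r = 0.919) and Fstl1 (r = 0.906), and Cfd to Car3 (r = 0.94), Mybpc2 (r = 0.885) and Chad (r = 0.879). With each group's mean removed, r was 0.399 to 0.64 for the genes named for C3ar1, 0.523 to 0.56 for those of Cfp and 0.735 to 0.925 for those of the other members.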

How the data were processed

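Heart RNA from 15 mice was sequenced from TruSeq stranded libraries on Illumina HiSeq instruments. The study names alternative models and does not say which was used for each library. The authors mapped the reads and deposited whole-number counts per gene without normalization (10480788 to 13424078 per library), and also FPKM per library, which equal counts over a fixed gene length and the library total. The study's supplement names mm9, hisat2 and htseq-count, whereas the submitters' processing notes list GRCm39, HISAT2, HTSeq, Cufflinks, Trimmomatic and DESeq2. The strand option and annotation were not given in the sources used here, and positions were taken from GENCODE vM1 (mm9).

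Counts were analysed in R 4.3.3 with edgeR 4.0.16 (TMM, filter at a minimum count of 10 and total of 15, quasi-likelihood fit of the group over all libraries). CPM are on the TMM scale, log2 CPM have a prior count of 2, and errors are SD or SE. Alternatives were the study's threshold (fold change over 1.25, unadjusted p under 0.05), no filter, RLE size factors, a replicate block, DESeq2 1.42.0, length offsets, only the compared libraries, and leaving out each library. The code was tested on simulated data. Named genes are the 9 members, other complement genes called in a comparison, the 3 most correlated genes per member and markers beside a result, of which a few are not reported here. The members and lists were chosen with earlier results of these data known. Whether replicates came from separate litters or batches was not given.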

Additional observations from a re-analysis of the deposited data

How the results depend on the processing

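Of the 9 genes, the 2 called in WTCKD against WTSHAM became 0 with only the compared libraries and 1 to 2 without each library. The 0 called in WTCKD + RNLS against WTCKD became 4 at the study's threshold, 1 with DESeq2 (Cfb) and 0 to 1 without each library. The 1 called in KOCKD + RNLS against KOCKD, Cfp, became 2 at the study's threshold, 0 without a filter, 0 with DESeq2, 0 with length offsets and 0 to 1 without each library, and with only the compared libraries C4b was called in its place (adjusted p = 0.00419). In KOCKD against WTCKD the count was 3 at the study's threshold and 0 without each library, and for the genotype difference 1 at the study's threshold. In WTCKD + RNLS against WTSHAM it was 3 to 6 without each library and 5 to 8 under the other settings, and over all groups 5 to 8 without each library. With the replicate number as a block, 1 gene was called in WTCKD + RNLS against WTCKD (Serping1, adjusted p = 0.0343) and 0 in KOCKD + RNLS against KOCKD, with no other change of a call in the pairwise comparisons. Over all genes tested the numbers showed no pairing. Of 30 same-numbered pairs 5 had a correlation of deviations over 0.1 (range -0.36 to 0.334), and 4 of 15 libraries matched best with their own number. Among the 9 genes, however, replicate 1 was the highest library for 6 to 8 in each CKD group, and pairing was not tested for them alone.

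Signs reversed only for values that did not pass. With length offsets Cd55 was at 0.03 in KOCKD against WTCKD, and the genotype differences of Cfp and Cd55 were 0.1 and -0.04. With only the compared libraries that of C4b was 0.01. Without each library in turn, WTCKD against WTSHAM ran from -0.01 to 0.47 for C3 and from -0.24 to 0.03 for Serping1, Cfb in KOCKD + RNLS against KOCKD from -0.64 to 0.16, and Cfd in KOCKD against WTCKD from -0.25 to 1.17. Genotype differences ran from -0.40 to 0.41 for C4b, -2.94 to 2.4 for Cfd, -0.19 to 0.01 for Cfp and -0.04 to 0.27 for C1ra. The cause of these changes was not tested, beyond the smaller number of libraries in some fits.

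Over all genes, the 299 calls of WTCKD against WTSHAM became 577 with DESeq2, 1470 at the study's threshold, 99 with only the compared libraries and 136 to 380 without each library. The 582 of WTCKD + RNLS against WTCKD became 876, 1874, 380 and 209 to 761. The 2095 of KOCKD + RNLS against KOCKD became 699 with length offsets and 862 to 1476 without each library, and the 1001 of WTCKD + RNLS against WTSHAM 2086 at the study's threshold, 294 with only the compared libraries and 427 to 1495. The 0 of KOCKD against WTCKD became 732 at the study's threshold and 1 to 10 under 5 other settings, and the 0 of the genotype difference 1981 at that threshold and 374 with DESeq2. RLE scaling and length offsets shifted the log2 value of the median gene by 0.01 and 0.022 at the most. In DESeq2, 5 adjusted p of the 9 genes were NA and were left out. Cfd, Cfb, Cfp and C3ar1 had at most 245 reads in any library, and the effect of this depth on their results was not tested.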
